A study of Mus musculus with 16 samples.

Results

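The regions described here are stretches of chromatin listed as open at the embryonic stage E16.5 in both *Morc1* genotypes and at no other stage measured in male mouse germ cells. Open here means listed as a peak, and absence from a list may reflect read depth or threshold. A region is a peak of the E16.5 heterozygous list that shares at least 1 bp with a peak of the E16.5 knockout list and with no peak of the 4 lists used for the other stages (E13.5 heterozygous, E13.5 knockout, P0 and P3). The rule selected 3690 of 53687 peaks of the E16.5 heterozygous list, or 6.87% (95% Wilson interval 6.66 to 7.09), from 302829 peaks in 6 distinct lists. Because presence and absence in these lists chose the regions, their stage pattern is a description and was not tested.

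Accessibility had been profiled by ATAC-seq, in which a transposase cuts open DNA and adds sequencing adapters to it. The 16 samples form 8 groups of 2: testis germ cells of *Morc1* (+/-) and *Morc1* (-/-) mice, taken before birth at E13.5 and E16.5 and postnatally on day 0 (P0) and day 3 (P3). All were isolated from mice carrying the Mvh-Venus transgene, a fluorescent reporter of the germ-cell gene *Mvh* (*Ddx4*), and the control is heterozygous, since no wild-type group is among the samples. The number of animals behind a sample is not given in the sources used here. Each group has 1 list of peak positions without height or score, and the P0 lists of the genotypes were identical, as were the P3 lists. No value therefore has a spread between replicates, read depth is unknown, and intervals below cover counting error over regions, promoter windows or genes only. A difference between sets whose intervals are apart is a difference between lists, not a test between samples.

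Fetal male germ cells, called gonocytes, stop dividing after sex determination and stay arrested until after birth. During the arrest they lay down new DNA methylation across the genome, at transposons with help from the piRNA pathway, in which small RNAs guide PIWI proteins to transposons. MORC1 is a nuclear ATPase that takes part in this silencing of transposons. Open regions far from gene starts are often enhancers, which act on genes at a distance, while promoters rich in CpG dinucleotides are usually open in most cells.

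The labelled cell type was checked against marker genes. A peak lay within 1000 bp of a start of 6 of 7 germ-cell marker genes in both E16.5 lists (*Ddx4*, *Dazl*, *Pou5f1*, *Kit*, *Sycp3* and *Piwil4*, and not *Nanos2*). A recurring E16.5 peak (shared by both genotypes and present at another stage) lay there in 58.3% of all protein-coding genes. That share leaves out other E16.5 peaks, which the marker count takes in. Of 16 markers of Sertoli, Leydig, peritubular, vascular and blood cells, 3 had a peak there in both E16.5 lists, namely *Wt1*, *Cyp11a1* and *Myh11*. None of the 23 markers had an E16.5-only region at a start, where 0.608% of all protein-coding genes have 1, so nothing is read from that count. An open start does not show expression, and the part of other cell types in the lists was not tested.

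Few of the regions were promoters. RefSeq promoter windows, which run from 250 bases before to 50 bases after an annotated start, were overlapped by an E16.5-only region in 86 of 32851 cases (0.262%). The windows were met by 78 of the 3690 regions and belong to 54 protein-coding and 28 long noncoding RNA genes. By contrast, 12098 windows (36.8%) were overlapped by the 39988 E16.5 peaks that both genotypes shared and that recurred at another stage, called recurring peaks below. The recurring set is far larger, so these shares of windows also reflect the number of peaks. Counted per region, 7.91% of E16.5-only regions and 36.2% of recurring peaks lay within 1000 bp of a gene start. In only 18 windows did the whole promoter lie inside the peak of both genotypes, 10 of them of protein-coding genes. From the 8 of these picked by closeness of the peak midpoint to the start, 4 are printed to show the span of CpG content; these 4 were chosen after their values were seen. The sequences are from RefSeq, assembly GRCm38.p6, written 5′ to 3′ on the gene's strand, with every CpG dinucleotide in capitals.
4930522H14Rik promoter, chr4:109531155-109531454, minus strand: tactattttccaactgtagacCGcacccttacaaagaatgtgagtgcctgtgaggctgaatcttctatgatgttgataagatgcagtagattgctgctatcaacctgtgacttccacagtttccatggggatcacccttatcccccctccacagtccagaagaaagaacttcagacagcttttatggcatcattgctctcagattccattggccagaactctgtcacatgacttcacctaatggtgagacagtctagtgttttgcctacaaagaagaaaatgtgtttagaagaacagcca
Aqp1 promoter, chr6:55336049-55336348, plus strand: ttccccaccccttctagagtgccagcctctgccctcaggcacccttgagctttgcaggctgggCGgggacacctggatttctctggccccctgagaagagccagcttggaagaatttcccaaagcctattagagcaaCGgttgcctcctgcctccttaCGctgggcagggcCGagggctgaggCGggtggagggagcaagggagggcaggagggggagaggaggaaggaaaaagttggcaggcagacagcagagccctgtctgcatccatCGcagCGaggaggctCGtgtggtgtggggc
Chl1 promoter, chr6:103510626-103510925, plus strand: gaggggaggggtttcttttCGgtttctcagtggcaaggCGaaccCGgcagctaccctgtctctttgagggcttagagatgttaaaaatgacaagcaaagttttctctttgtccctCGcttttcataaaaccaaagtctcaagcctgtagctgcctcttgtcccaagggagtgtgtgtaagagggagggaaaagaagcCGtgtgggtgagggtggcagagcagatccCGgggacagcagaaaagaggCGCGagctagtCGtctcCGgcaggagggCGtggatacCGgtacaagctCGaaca
Mical3 promoter, chr6:121130973-121131272, minus strand: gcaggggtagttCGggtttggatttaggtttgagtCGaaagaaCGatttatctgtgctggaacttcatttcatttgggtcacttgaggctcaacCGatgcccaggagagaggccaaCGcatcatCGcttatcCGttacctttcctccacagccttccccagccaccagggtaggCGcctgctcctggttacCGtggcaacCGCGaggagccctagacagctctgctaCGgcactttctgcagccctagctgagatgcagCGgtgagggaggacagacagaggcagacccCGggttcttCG

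The first, of a gene without an assigned function, holds 1 CpG in 300 bases and has a CpG ratio (the observed count of CpG over that predicted from its C and G content) of 0.0706. *Aqp1*, a water channel, holds 8 CpGs and has a ratio of 0.278. *Chl1*, a neural cell adhesion molecule, holds 13 and reaches 0.628. *Mical3*, an actin-oxidising enzyme, holds 15 with a ratio of 0.623. The heterozygous peak over the *Aqp1* promoter lay at 55336014 to 55336514 on chromosome 6 and the knockout peak at 55336001 to 55336501, and the nearest peak of another stage was 21983 bp away. The *Chl1* region (103510576 to 103511076, chromosome 6) was 969 bp from a P3 peak, and the *Mical3* region (121130894 to 121131394, chromosome 6) was 336 bp from an E13.5 heterozygous peak. The *4930522H14Rik* region (109530962 to 109531462, chromosome 4) was 76 bp from a P0 peak. These promoters thus range from well apart from any peak of another stage to next to such a peak.

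Over all 86 windows the median CpG ratio was 0.301 (quartiles 0.173 and 0.607), and 24 windows (27.9%, interval 19.5 to 38.2) had a ratio of 0.6 or more. Among windows met by recurring peaks this share was 76.1% (interval 75.3 to 76.9), with a median ratio of 0.782. Over all RefSeq promoter windows it was 35.8%, inside the interval of the E16.5-only set. The E13.5-only set, made in the same way from both genotypes, gave 22.2% (interval 17.5 to 27.6), and the P0-only set 20.5%, with intervals that overlapped that of the E16.5-only set. The P3-only set gave 8.22% (interval 3.82 to 16.8), below it. The P0-only and P3-only sets each rest on 1 list, with no second list to share a peak with.

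The CpG-rich promoters more often had open chromatin of another stage nearby, with intervals that did not overlap. Of the 24 windows with a ratio of 0.6 or more, 14 (58.3%, interval 38.8 to 75.5) were met by a region within 1000 bp of another stage's peak, against 13 of the other 62 (21.0%, interval 12.7 to 32.6). The 86 windows were met by 78 regions, so some regions count more than once, while the intervals treat every window as separate. Examples are *Erbin*, a scaffold protein of cell junctions with 53 CpGs in its window, whose region was 91 bp from an E13.5 heterozygous peak and had a knockout partner that overlapped a peak of another stage, and *Tbc1d1*, which encodes a Rab GTPase activator and whose region was 62 bp from a P0 peak. *Lmx1b*, *Pax6*, *Cyp26a1* and *T* were CpG-rich and farther away, at 8656, 6167, 5884 and 4116 bp.

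Among short motifs searched on both strands of the 86 windows, the CCAAT box (CCAAT) was found in 44.2% (interval 34.2 to 54.7), against 37.4% of all promoter windows. The GC box (GGGCGG) was found in 30.2% (interval 21.5 to 40.6), against 35.7% of all and 68.9% of those met by recurring peaks. The SOX core (ACAAAG) was found in 22.1% (interval 14.6 to 31.9), against 18.7% of all. The ETS core (CGGAAGT) was in 0 of 86, which allows up to 4.28% by the Wilson interval, against 6.42% of all windows. It was also in 2.33% (interval 1.07 to 5.0) of the E13.5-only, 1.37% (interval 0.242 to 7.36) of the P3-only and 6.14% (interval 4.05 to 9.2) of the P0-only windows, with intervals that all overlapped that of the E16.5-only set. A match is a run of letters only, and these motifs were looked for in promoter windows, not in the regions far from genes.

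**Figure D1:**
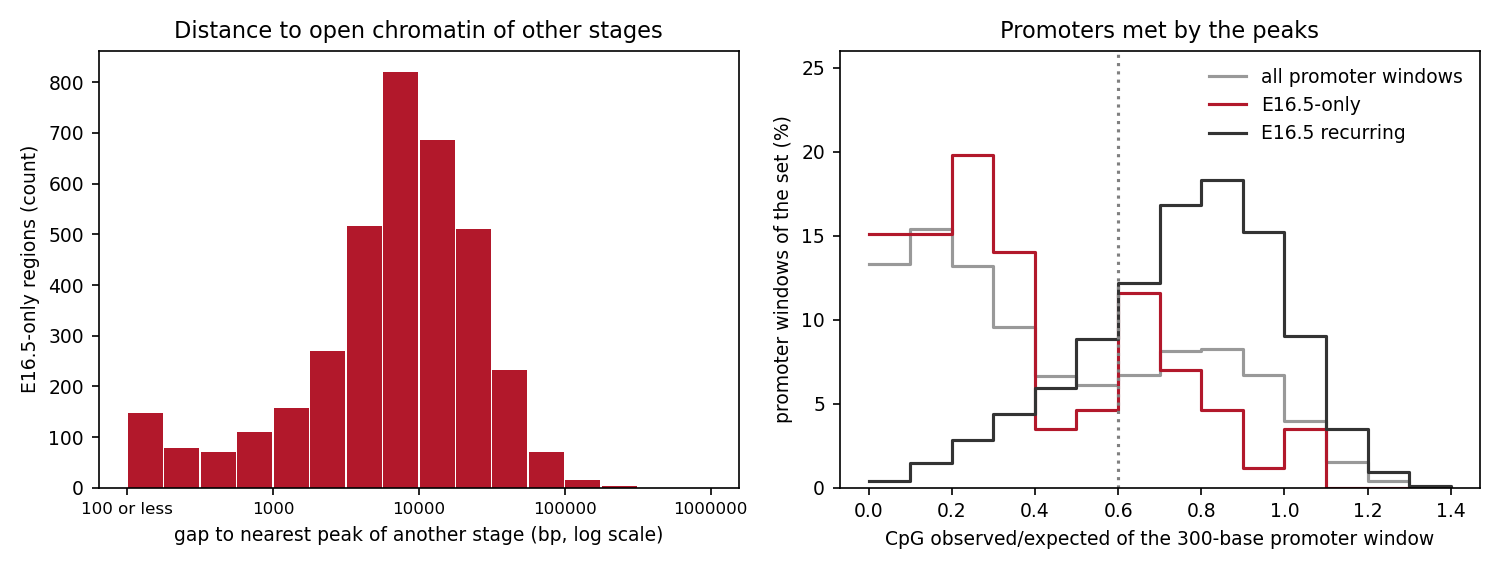
Left, number of E16.5-only regions by the gap in bp (log axis) to the nearest peak of another stage, whose median was 8094 bp. Right, share of promoter windows (%) by CpG ratio for all windows, those met by E16.5-only regions and those met by recurring E16.5 peaks, with a dotted line at 0.6; 27.9% of the E16.5-only windows and 76.1% of the recurring ones lie at or right of it.

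The protein-coding genes whose promoter window was overlapped include several with known roles in embryonic patterning. *T* (brachyury), a transcription factor of the early mesoderm, had a heterozygous peak at 8433773 to 8434273 on chromosome 17 and a knockout peak at 8433851 to 8434351, the former with its midpoint 400 bp before the start. *Pax6*, a transcription factor of eye and brain, had 1 at 105668424 to 105668924 on chromosome 2. *Lmx1b*, a LIM homeobox factor of limb and midbrain, had 1 at 33640758 to 33641258 on chromosome 2. *Elf5*, a trophoblast and epithelial ETS factor, had 1 at 103411421 to 103411921 on chromosome 2, and a recurring E16.5 peak lay at a start of this gene as well. All 4 regions were found in both genotypes by the rule.

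A pair of the overlapped promoters belongs to enzymes of retinoid metabolism. *Cyp26a1*, which breaks down retinoic acid, was met at 37697534 to 37698034 on chromosome 19 with the midpoint 24 bp from the start. *Rdh11*, a retinol dehydrogenase, was met at 79191708 to 79192208 on chromosome 12, 370 bp from an E13.5 knockout peak. Others encode proteins of epithelia and immunity, such as the defensins *Defb13* and *Defb46* and the receptor subunits *Il17re* and *Il22ra1*. *Slc32a1*, the vesicular transporter of the transmitter GABA, was met at 158610676 to 158611176 on chromosome 2, at the same position in both genotypes. These genes were picked from the 54 after their values were seen, and no theme among the 54 was tested.

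Most of the regions lay beyond 1000 bp of any gene end. Of 3690 regions, 357 (9.67%, interval 8.76 to 10.7) lay within 1000 bp of an outer end of an annotated gene, 1461 (39.6%, interval 38.0 to 41.2) lay elsewhere within genes, and 1872 (50.7%, interval 49.1 to 52.3) lay between genes. Recurring E16.5 peaks were at gene ends in 35.6% (interval 35.1 to 36.1) and between genes in 39.8%. Sets open at another stage alone were as rare at gene ends, with 9.79% (interval 9.13 to 10.5) of the 7447 E13.5-only regions and 10.2% (interval 9.24 to 11.3) of the 3388 P3-only regions. The 13848 P0-only regions stood slightly higher at 12.3% (interval 11.7 to 12.8). A low share at gene ends thus did not set the E16.5-only regions apart from the E13.5-only and P3-only sets.

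What did differ between these sets was the share between genes. It was 37.5% (interval 36.4 to 38.6) in the E13.5-only set, 43.7% (interval 42.1 to 45.4) in the P3-only set, 50.7% in the E16.5-only set and 63.3% (interval 62.5 to 64.1) in the P0-only set, and none of these intervals overlapped another. The same order held for gene-poor windows of 1 Mb, those with at most 1 protein-coding gene. They held 12.6% of E13.5-only, 18.7% of P3-only, 27.7% (interval 26.3 to 29.2) of E16.5-only and 36.0% of P0-only regions, and 22.9% of recurring E16.5 peaks. The lists behind the single-stage sets rank in the same order by length. They hold 40448 (E13.5 heterozygous), 44760 (P3), 53687 (E16.5 heterozygous) and 67258 peaks (P0). A P0-only or P3-only region needed a peak in 1 list, the others in the lists of both genotypes. The part of list length and of this requirement in the order was not tested. Windows with 20 or more protein-coding genes held 9.51% (interval 8.61 to 10.5) of E16.5-only regions and 17.8% of recurring peaks.

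**Figure D2:**
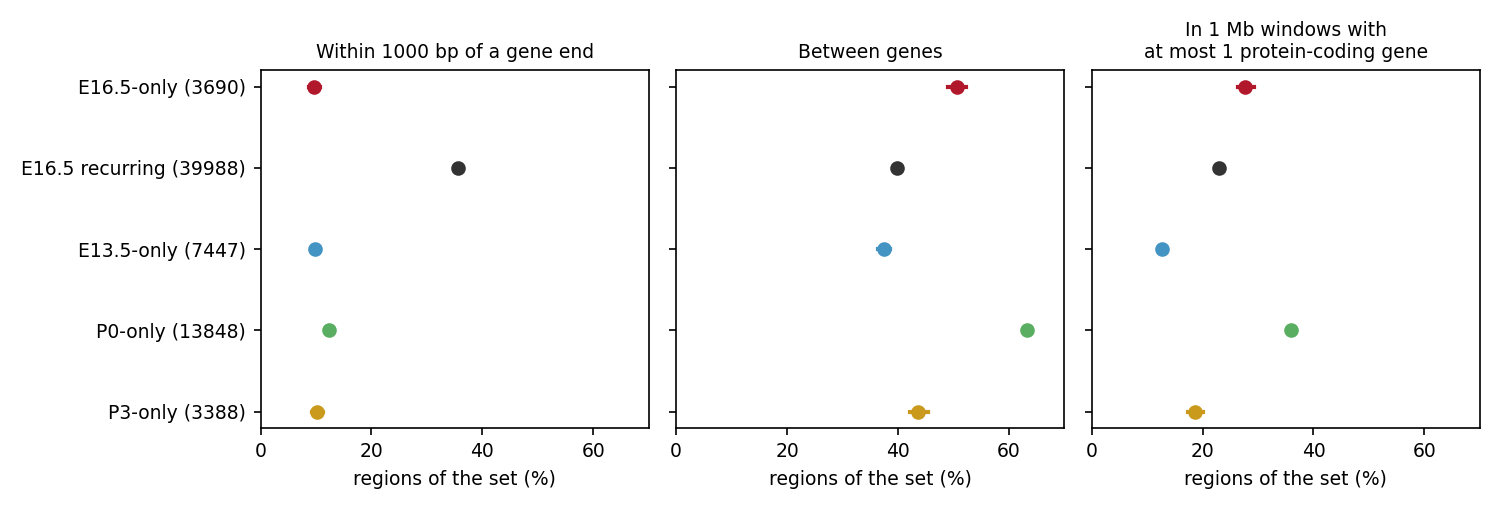
Share of regions (%) within 1000 bp of a gene end, between genes, and in gene-poor windows of 1 Mb, for 5 sets with the number of regions in brackets; points are shares and bars are 95% Wilson intervals, some narrower than the point. The E16.5-only set (9.67%, 50.7% and 27.7%) lies with the E13.5-only and P3-only sets and below the P0-only set at gene ends, and between the P3-only and P0-only sets in the other panels.

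The median distance from the midpoint of an E16.5-only region to the nearest gene start was 23316 bp (quartiles 7408.5 and 60772.5). For recurring E16.5 peaks the median was 7932.5 bp, with a lower quartile of 166 bp. The median was 15833 bp in the E13.5-only, 22684.5 bp in the P0-only and 19328 bp in the P3-only set. Over 100 kb from any gene start lay 556 of the E16.5-only regions (15.1%, interval 13.9 to 16.3), against 6.41% of the E13.5-only and 10.6% of the P3-only regions, with the P0-only set above all 3. This order is again that of list length, whose part was not tested. By the lower quartile, 3 in 4 of the E16.5-only regions lay over 7408.5 bp from any annotated start.

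**Figure D3:**
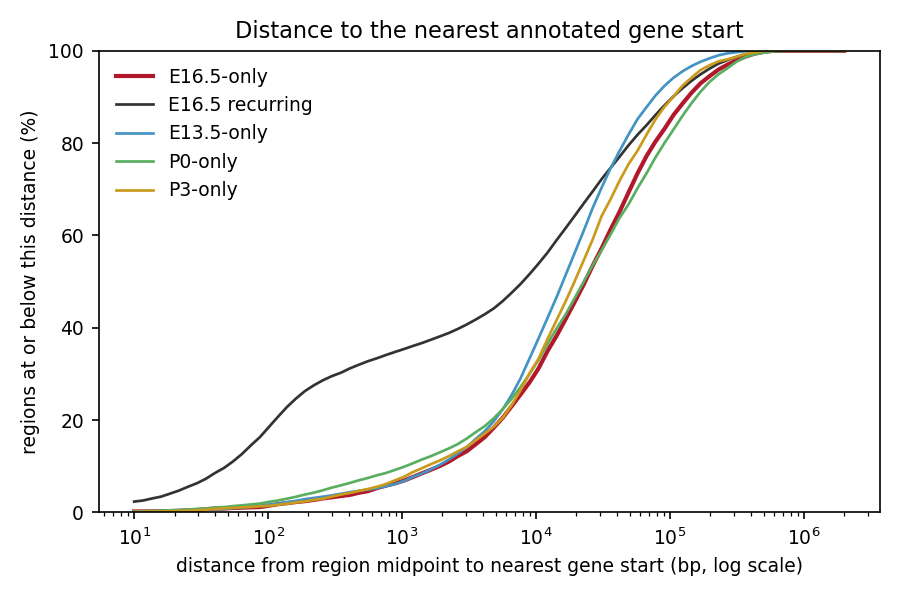
Cumulative share of regions (%) by distance in bp (log axis) from the midpoint to the nearest annotated gene start, for the same 5 sets. Recurring E16.5 peaks rise early, with a lower quartile of 166 bp, whereas the E16.5-only curve starts to rise in the kilobase range and passes its median at 23316 bp.

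The regions were spread unevenly over chromosomes. As a share of the E16.5 heterozygous peaks of a chromosome they ranged over the 19 autosomes and X from 2.8% on chromosome 11 (50 of 1788, interval 2.13 to 3.67) to 9.37% on chromosome 14 (285 of 3041, interval 8.39 to 10.5). Chromosomes 3 (7.78%), 5 (8.01%) and 14 had intervals wholly above the share of 6.87% for the whole list. Chromosomes 11, 15 (4.57%), 18 (4.11%) and 19 (3.38%) had intervals wholly below it. With regions taken from the knockout list instead, chromosome 14 stood at 9.13% and chromosome 11 at 2.41%. Chromosome X, at 6.92% (interval 5.88 to 8.13), was not apart from the whole.

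The chromosomes low in E16.5-only regions were not alike in gene content. Chromosomes 11 and 19 have 132 and 115 protein-coding genes per 10 Mb, but chromosomes 15 and 18 have 74.7 and 56.4, and chromosome 14 has 68.3. The total number of peaks per list also differed between chromosomes. On chromosome 11 the E13.5 lists held 2358 heterozygous and 2292 knockout peaks, the E16.5 lists 1788 and 2113, and the P0 list 2975. On chromosome 14 the E13.5 lists held 1680 and 1694, the E16.5 lists 3041 and 3166, and the P0 list 3224. Like chromosome 11, chromosomes 18 and 19 had fewer heterozygous peaks at E16.5 (1218 and 918) than at E13.5 (1331 and 1056). Like chromosome 14, chromosomes 3 and 5 had more at E16.5 (3906 and 3993) than at E13.5 (2351 and 2542). Chromosomes 2 and 15 followed this less closely. Chromosome 2 went from 3077 heterozygous peaks at E13.5 to 3330 at E16.5 with a share of 7.45%, and chromosome 15 from 1493 to 1859 with 4.57%. The E13.5-only regions showed a narrower range over the autosomes, from 15.5% (chromosome 19) to 20.8% (chromosome 10) of their own list. P0-only regions made up 25.1% or more of the P0 peaks of chromosomes 15, 18 and 19, the highest shares among the autosomes, and 32.6% on X. The part of list length and depth in these chromosome values was not tested.

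**Figure D4:**
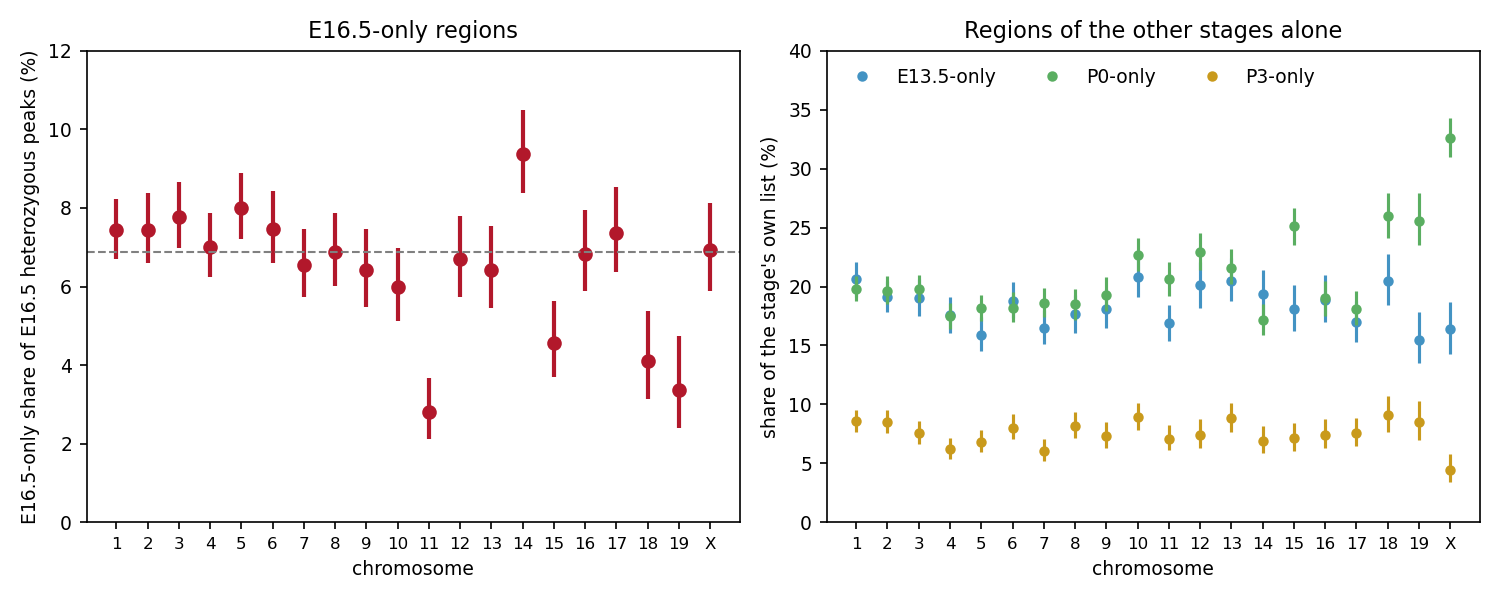
Left, E16.5-only regions as a share (%) of the E16.5 heterozygous peaks of each chromosome, with 95% Wilson intervals and a dashed line at 6.87%; chromosome 14 (9.37%) is highest and chromosome 11 (2.8%) lowest. Right, E13.5-only, P0-only and P3-only regions as a share (%) of the stage's own list on each chromosome; the P0-only share on X, at 32.6%, is the highest plotted. Chromosome Y, with 15 heterozygous peaks, is not plotted.

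Locally the regions stood mostly alone. The median distance to the nearest other E16.5-only region was 137 kb, and 1529 regions (41.4%, interval 39.9 to 43.0) had another within 100 kb. Of the 100 kb windows that held any, 2821 held 1, 354 held 2, 48 held 3, 3 held 4 and 1 held 5. Since larger sets are denser by number alone, spacing was compared only with the P3-only set, which is of similar size (3388 regions). In that set the median distance was 222 kb, and 27.7% (interval 26.2 to 29.2) had another within 100 kb. The E16.5-only regions were thus closer together than the P3-only ones. The P3-only set rests on 1 list, and the part of this in the difference was not tested. In windows of 10 Mb the highest count was on chromosome 5 from 60 to 70 Mb, with 56 E16.5-only regions among 374 heterozygous peaks (15.0%), followed by the adjoining 10 Mb with 46 among 377 (12.2%).

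The window with 5 lay on chromosome 7 (15800001 to 15900000), where 5 of 7 E16.5 heterozygous peaks were E16.5-only. It holds *Obox6*, a homeobox gene of the oocyte, *Crx*, a photoreceptor homeobox gene, and *Crxos*. The regions began at 15826283, 15839021, 15859818, 15881270 and 15887880, and each was 7307 to 28104 bp from the nearest peak of another stage, which was a P0 peak in all 5 cases. A pair of windows with 4 regions each lay on chromosome 1 (119100001 to 119200000 and 119300001 to 119400000), with 6 heterozygous peaks in either. The nearest protein-coding genes are *Gli2*, a transcription factor of Hedgehog signalling, and *Inhbb*, which encodes the beta-B subunit of activins and inhibins. The last region there ended 17.3 kb from *Inhbb*. The fourth window, on chromosome 5 (92400001 to 92500000), held 4 regions among 5 heterozygous peaks over *Art3*, *Nup54* and *Scarb2*. The fifth place was shared by 48 windows with 3 regions, so none of those is named.

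Inside genes, 1461 annotated genes, of which 1079 protein-coding, held the midpoint of at least 1 region, and 34 held 4 or more. *Naaladl2*, a gene of the glutamate carboxypeptidase family that spans 1350 kb on chromosome 3, held the most, with 8 of its 59 heterozygous peaks. Next were *Lrp1b*, a giant lipoprotein-receptor relative, and *Ptprn2*, a phosphatase-like protein of secretory vesicles, with 7 each. Those 7 were among 71 peaks in *Lrp1b* and among 19 in *Ptprn2*. *Galntl6*, *Gpc6* (a glypican), *Grik2* (a kainate receptor subunit), *Igh* (the immunoglobulin heavy chain locus) and *Ttll11* held 6 each, and *Agbl4* and *Ccser1*, the last of the 10 genes named by this count, held 5, as did other genes that come later by symbol. All but *Ttll11* (229 kb) span 696 kb or more.

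Per length the order changed. Among genes with 4 or more regions, *Tec*, a cytoplasmic tyrosine kinase best known from blood cells, held 35.4 per Mb, with 4 of its 8 heterozygous peaks over 113 kb on chromosome 5. These 4 began at 72782835, 72794944, 72816877 and 72858891, and the nearest peak of another stage was a P0 peak for each, 25276, 13167, 7764 and 37 bp away. *Ttll11*, a tubulin polyglutamylase on chromosome 2, held 26.2 per Mb, with 6 of its 12 heterozygous peaks. *Mthfd1l*, a mitochondrial enzyme of one-carbon metabolism, held 20.6 per Mb, and *Zfp804a*, a zinc finger gene, 19.1 per Mb. They were followed by *Adamtsl3* (14.3), *Klhl29* (13.4), *Gabbr2* (12.1), *Pde1a* (11.0), *Pdzd2* (10.5) and *Dst* (9.98 per Mb).

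Few genes of any kind had an E16.5-only region at a start. Over all protein-coding genes, 133 of 21887 (0.608%) had 1 within 1000 bp of a start, and over all annotated genes 312 of 49943 (0.625%). Of 192 different genes on 13 lists of germ-cell, chromatin, somatic and neuronal genes, 2 did, *T* and *Dnmt3a*. A recurring E16.5 peak lay at a start of 58.3% of all protein-coding genes, of 20 of 23 piRNA pathway genes and of 15 of 18 meiotic genes. It did so for 7 of 14 genes of fetal male germ-cell fate, 3 of 10 Sertoli cell genes, 3 of 10 fetal Leydig cell genes and 2 of 12 peritubular, vascular and blood cell genes. The neuronal adhesion and synapse list had 23 of 24. The heterochromatin and cell cycle arrest lists had 15 of 16 each, and the spermatogonial differentiation list 9 of 11. The pluripotency list had 10 of 16 and the spermatogonial stem cell list 8 of 15. High shares were thus not particular to germ-cell genes.

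*Dnmt3a* encodes a methyltransferase that lays down new DNA methylation in arrested gonocytes. Its region lay inside the gene (3801559 to 3914443, chromosome 12) at 3807469 to 3807969 in the heterozygous list (3807506 to 3808006 in the knockout list), 559 bp from an annotated start. An E13.5 knockout peak was 697 bp away. All 12 genes of the DNA methylation list had a recurring E16.5 peak at a start. *Mbd2*, a reader of methylated CpGs, held a region 12559 bp from its nearer outer end, since the promoter table gives no start for it.

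With the gene's bounds and 10 kb on either side counted, 1550 of 21887 protein-coding genes (7.08%) had an E16.5-only region, and 22 of the 192 listed genes did. None of 23 piRNA pathway genes, 18 meiotic genes, 14 genes of fetal male germ-cell fate or 12 genes of peritubular, vascular and blood cells was among them. Beside a background of 7.08%, nothing is read from a count of 0 in lists of this size. Of 16 pluripotency genes 1 had a region in reach: that of *Sox2*, a core factor of pluripotent cells, lay at 34661389 to 34661889 on chromosome 3, 11644 bp from its start. *Cbx5*, which encodes heterochromatin protein HP1 alpha, had 1 in its flank, 413 bp from an E13.5 knockout peak. *Cdkn2d*, a cell cycle inhibitor of the arrest list, had 1 at 8045 bp from its start.

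*Kit*, the receptor tyrosine kinase of germ-cell survival and spermatogonial differentiation, held 2 regions in its own bounds (75574987 to 75656722, chromosome 5). The heterozygous peaks lay at 75587658 to 75588158 and 75589381 to 75589881, and their knockout partners at 75587655 to 75588155 and 75589441 to 75589941. Their midpoints were 12917 and 14640 bp from the start, and the nearest peak of another stage, E13.5 heterozygous, was 520 and 2243 bp away. The start of *Kit* itself was open in all 6 lists. *Ccnd2*, a D-type cyclin, had a region 2812 bp from an outer end. Of the somatic lists, *Wt1*, a Sertoli and progenitor transcription factor, and *Lhcgr*, the luteinizing hormone receptor, each held 1 region within the gene.

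The list of neuronal adhesion and synapse genes stood highest by count, with 12 of 24 in reach of a region, but its median gene length is 1520 kb, against 17.2 kb over protein-coding genes. Over all protein-coding genes the share in reach was 3.26% for those under 10 kb and 35.3% (interval 32.3 to 38.3) for those over 200 kb. *Lrp1b* held 7 regions, *Rbfox1* (a splicing factor) 5, and *Cntnap2* (a neurexin relative), *Ctnna3* and *Ptprd* 3 each.

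The peaks of both genotypes overlap by the rule, so their midpoints could differ by 500 bp at most. The recurring peaks met the same condition, and the values that follow are a description. Each of the 3690 regions had its own knockout partner, the midpoints differed by a median of 44 bp (quartiles 19 and 92), and 22 pairs were identical. In the recurring peaks the median offset was 33 bp (quartiles 14 and 72). Overlaps of 250 bp or less made up 4.04% of E16.5-only and 2.81% of recurring pairs. The smallest overlap inside the rule was 6 bp, for the region at 12109779 to 12110279 on chromosome 19, whose knockout partner began at 12110274. For 53 regions (1.44%) the knockout partner itself overlapped a peak of another stage, in 43 cases a P0 peak.

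Peaks absent from the other stages were less often shared by the genotypes than peaks present there. Of 7964 E16.5 heterozygous peaks absent from the other stages, 46.3% (interval 45.2 to 47.4) were in the knockout list, against 87.5% (interval 87.2 to 87.8) of the 45723 present at another stage. From the knockout side, 42.9% of 8609 peaks absent from other stages were in the heterozygous list. Both shares come from the lists that made the rule and are given without a test. Of the 43678 peaks shared by the genotypes, 8.45% were E16.5-only, 15.4% were otherwise at P0 alone, 3.4% at E13.5 alone and 1.02% at P3 alone, and 44.5% were present at all stages. The lists differ in length, from 39559 peaks (E13.5 knockout) to 67258 (P0), and the part of list length in these shares was not tested.

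The nearest peak of another stage was a median of 8094 bp away (quartiles 3645 and 16160.5), and for 1517 regions (41.1%) it was over 10 kb away. At the edge of the rule, the region at 111580941 to 111581441 on chromosome 1 directly adjoined a P0 peak that began at 111581442, which its knockout partner (111581266 to 111581766) overlapped. Within 500 bp of another stage's peak lay 280 regions (7.59%, interval 6.78 to 8.49). Just outside the rule, a shared peak at 99087677 to 99088177 on chromosome 15 overlapped another stage by 3 bp, and 54 of 39988 recurring peaks overlapped by 50 bp or less. At the far end, a region on X (74791391 to 74791891) was 292583 bp from the nearest peak of any other stage, and another on X (98701578 to 98702078) was 188091 bp away. Beyond 100 kb lay 18 regions in all. Near edges of this kind concern few regions, and most stood kilobases from open chromatin of other stages.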

How the data were processed

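ATAC-seq peak lists of mouse gonocytes, 1 per stage and genotype, were used as the authors deposited them: chromosome, start and end, with no score. All peaks of the E16.5 lists and all but 1 to 3 of the other lists were 501 bp wide. Per the submitters' processing notes the build was mm10 (GRCm38), and bcl2fastq 2.20, cutadapt 1.18, Bowtie2 2.3.4.1, deepTools 3.5.0 and HOMER 4.10 were named without a role. The peak caller, its threshold and the pooling of the 2 samples of a group are not given in the sources used here. Groups came from sample titles. The identical P0 lists, and likewise the P3 lists, were used once.

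Overlaps of at least 1 bp were computed in Python 3.11.15 with numpy 2.4.6 and pandas 2.3.3, and bedtools 2.31.1 returned the same 3690 regions. On simulated data with 2000 planted regions, 2000 were recovered. Positions are 1-based. Genes are from RefSeq GRCm38.p6; a start is that of the promoter table, or both outer ends for genes it lacks (51 of the 192 listed genes). Named genes were those holding most regions, in total and per Mb, those in the densest 100 kb windows, and listed genes with a region. The members and lists were chosen with earlier results of these data known. No test across samples was possible, with 1 list per group; shares carry 95% Wilson intervals. Alternatives are given in the closing section.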

Additional observations from a re-analysis of the deposited data

How the results depend on the processing

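No paired analysis was possible because the files hold 1 list for each pair of samples and nothing for either sample, which also kept any replicate from being left out. Without a test, shares were taken to move if they fell outside the 95% interval given in the text, and counts if they changed by over 1.5 times. Of 46 recomputed values, 35 stayed and 11 moved. Dropping the knockout list from the rule raised the number of regions to 7964 and of genes with a region at their start to 702. It also gave 52.5% between genes, 3.11% on X and 63% within 100 kb of another region; a larger set is denser by construction. Keeping 500 bp clear of other stages gave 8.71% at gene ends and 39.6% within 100 kb of another region. Gene-end windows of 500 bp gave 6.64%. Counting protein-coding genes only gave 4.39% at gene ends, 61.5% between genes and 133 genes with a region at their start, fewer by construction. A reciprocal overlap of 50%, regions from the knockout list, autosomes only, and a knockout partner that is also absent from other stages (added after seeing the data) moved none of the values computed under them. Depth is unknown, so absence from a list may reflect depth or threshold, which the lists cannot show.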

Other observations

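Beside the regions shared by both genotypes, 4274 E16.5 heterozygous peaks and 4919 E16.5 knockout peaks were found in 1 list only and at no other stage. At gene ends lay 9.97% and 9.09%, with intervals that overlapped that of the shared E16.5-only regions. Between genes lay 54.0% (interval 52.6 to 55.5) of the heterozygous set, above the 50.7% of the shared regions (interval 49.1 to 52.3), and 53.0% (interval 51.6 to 54.4) of the knockout set, whose interval overlapped theirs. Gene-poor windows of 1 Mb held 33.1% (interval 31.7 to 34.5) of the heterozygous and 26.5% (interval 25.3 to 27.8) of the knockout set, against 27.7% of the shared regions (interval 26.3 to 29.2). On X lay 2.62% (interval 2.18 to 3.14) of the heterozygous and 4.96% (interval 4.39 to 5.6) of the knockout set. The shared set stood at 3.69% (interval 3.12 to 4.34), overlapping the heterozygous interval and below the knockout one. Of the promoter windows met by the heterozygous and the knockout set, 24.5% of 98 and 16.8% of 113 had a CpG ratio of 0.6 or more. Among 1005 microRNA hairpins in the RefSeq table, 4 had an E16.5-only region within 1000 bp: *Mir153*, which lies within *Ptprn2*, *Mir1941*, *Mir6349* and *Mir7001*. Beside the 0.625% of all annotated genes with such a region at a start, nothing is read from this count.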
